A study of Homo sapiens with 6 samples.

Results

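The intermediate filament genes VIM, KRT7, KRT8, KRT18, KRT19, KRT80, KRT81, LMNA, LMNB1 and NES were taken by symbol and matched to their Entrez identifiers, and all 10 had a row among the 12703 genes of the count table. The samples were PC3 cells, an established human prostate cancer line derived from a bone metastasis. The control group was 3 PC3 lines stably transduced with negative-control lentiviral particles, and the other group was 3 PC3 lines selected after infection with a GCNT1 open reading frame virus, GCNT1 being a Golgi enzyme that builds branched O-glycans. Both groups therefore carry an integrated lentivirus, and the sources used here do not say whether a line is a single clone or a pool or came from a separate infection, so that p-values measure the spread between these libraries only. RNA from each line gave 1 stranded mRNA library. The question the design asks of these genes is which of them differed in transcript level between the GCNT1 overexpressing and the control lines.

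Intermediate filaments are rope-like polymers of coiled-coil proteins that give a cell and its nucleus mechanical strength. Keratins are obligate heteropolymers of a type I and a type II chain and are the filaments of epithelial cells, with KRT8 and KRT18 as the pair of luminal prostate epithelium. Vimentin, a type III protein, forms filaments alone and is the usual filament of mesenchymal cells, nestin joins vimentin in mixed filaments, and the lamins line the inside of the nuclear envelope.

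The deposited counts summed to 12125672 to 12755888 per control library and 11392213 to 13825704 per GCNT1 overexpressing library. Counts were scaled by TMM factors, given as CPM, the counts of a gene relative to the scaled library total, and compared by the quasi-likelihood test of edgeR, with Benjamini-Hochberg adjustment over all 12703 genes. A gene is called higher or lower where the adjusted p was under 0.05 and the log2 fold change at least 0.58 in size. GCNT1 itself had 9, 13 and 8 counts in controls and 13, 16 and 35 with overexpression, a log2 fold change of 0.98 (edgeR adjusted p = 0.0362). It missed the threshold under DESeq2 (adjusted p = 0.0821), and in edgeR without control library 1 (adjusted p = 0.0920), control library 3 (adjusted p = 0.0944) or overexpressing library 3 (adjusted p = 0.269, log2 fold change 0.49). Of the epithelial markers, KRT8 and KRT18 stood above 200 CPM in the mean of each group, while EPCAM had 5.54 CPM in controls and 5.91 CPM with overexpression and CDH1, which encodes E-cadherin, fell from 3.59 to 1.10 CPM (edgeR adjusted p = 4.74e-05). The mesenchymal markers did not move together: CDH2 had 135 and 176 CPM, ZEB1 64.5 and 56.0 CPM, and FN1 fell from 1247 to 525 CPM (edgeR adjusted p = 3.46e-09). The basal prostate markers KRT5, KRT14 and TP63 were not analysed here. Of 9 leukocyte, endothelial and fibroblast markers only PECAM1 was analysed here, at 1.77 CPM in controls and 4.43 CPM with overexpression, and the part of other cells in the results was not tested. In bulk RNA, fewer cells with a transcript and less of it per cell cannot be told apart.

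The 3 type II keratins KRT7, KRT80 and KRT81 rose and the type I keratin KRT19 fell, while KRT8 and KRT18 were 1.10-fold and 1.14-fold lower, under the fold change threshold. Of the 10 genes, 4 were called, 3 higher and 1 lower, against 19.3% of all genes tested, 8.28% higher and 11.1% lower. By the adjusted p alone 8 of the 10 passed, 5 higher and 3 lower, against 57.6% of all genes, 28.3% higher and 29.3% lower. In 8 of the 10 the groups did not overlap, against 62.5% of all genes. The median log2 fold change was 0.10 over the 10 genes and 0.00 over all genes, and with only library size as the scaling these medians were 0.15 and 0.06.

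**Figure D1:**
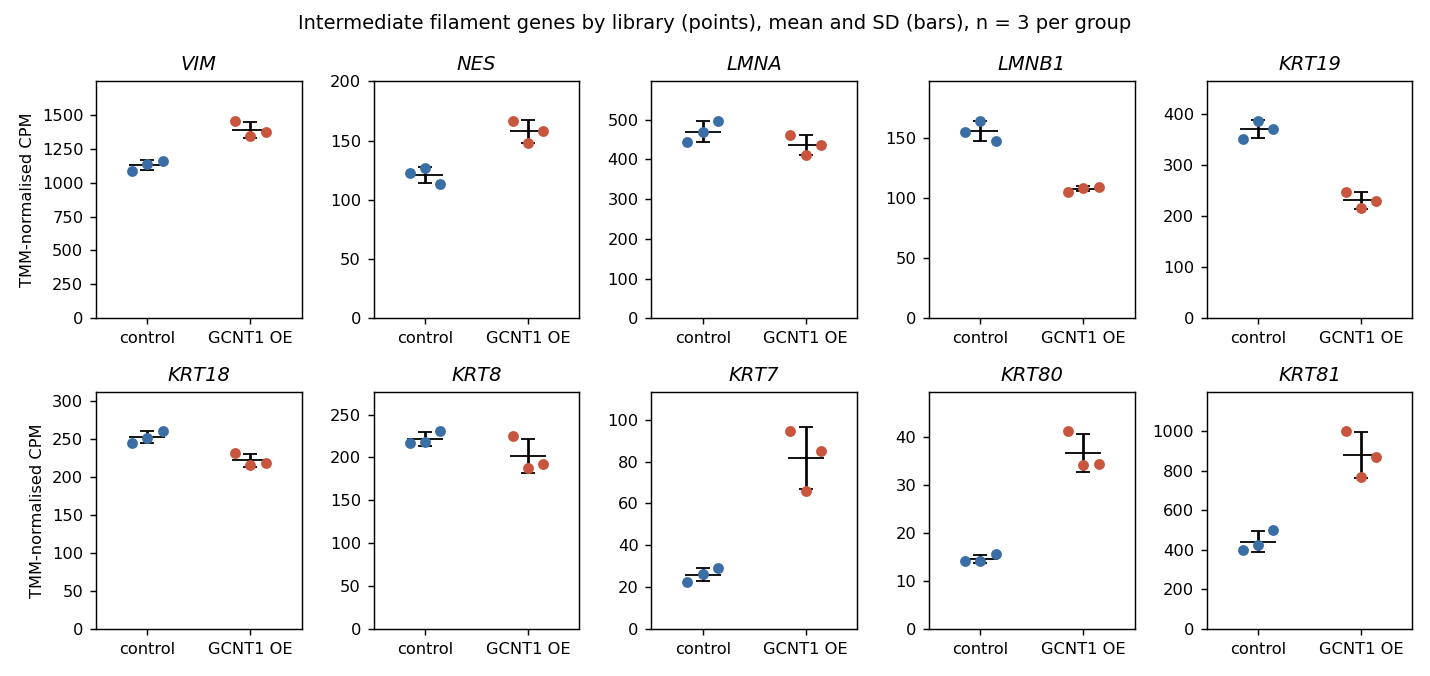
TMM-normalised CPM of the 10 intermediate filament genes in each library. Points are libraries, bars are the mean and SD of 3 libraries per group, and every vertical axis starts at 0. KRT7, KRT80 and KRT81 sit higher and KRT19 and LMNB1 lower in the GCNT1 overexpressing lines, and the groups overlap for KRT8 and LMNA.

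KRT7 had the largest fold change of the 10. It encodes a type II keratin of simple and ductal epithelia and occupies bases 52232520 to 52252186 of chromosome 12 (hg38, GENCODE), with 9 exons in its canonical transcript. Its level was 22.6, 26.3 and 29.1 CPM in the control libraries and 94.5, 65.7 and 85.0 CPM in the overexpressing libraries. Every overexpressing library lay far above every control library. The mean rose from 26.0 ± 3.27 to 81.8 ± 14.7 CPM (SD, n = 3 each), a 3.14-fold difference (log2 fold change 1.65 ± 0.12 SE, edgeR adjusted p = 1.49e-07). Of its 1551 windows of 75 bases, 9.80% lie in the opposite-strand RNA KRT7-AS, not analysed here.

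KRT80, a type II keratin related to the hair keratins and found in many epithelia, lies next to KRT7 from 52168996 to 52192014. It had 14.1, 14.2 and 15.6 CPM in controls and 41.1, 34.1 and 34.4 CPM with GCNT1 overexpression, so that the spread within each group was small beside the gap between them. It rose 2.49-fold (log2 fold change 1.32 ± 0.09 SE, edgeR adjusted p = 8.50e-08), the smallest p of the 10 genes. The genes outside the set whose 6 values were most like those of KRT80 were NOTCH1, LOC101929563 and SELENBP1, with a mean absolute difference of 0.07 each in centred log2 CPM over the 6 libraries.

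KRT81 encodes a type II keratin of the hair cortex and lies from 52285913 to 52291534 on chromosome 12. Its level was 400, 426 and 499 CPM in controls and 999, 768 and 868 CPM with overexpression. It rose 1.99-fold (log2 fold change 0.99 ± 0.09 SE, edgeR adjusted p = 1.01e-06), from a level that was already high. In all 3 rising keratins overexpressing library 1 was the highest library, and without it KRT7, KRT80 and KRT81 were still called. KRT81 shares sequence with other genes, and how its reads were assigned was not tested. Of the 1855 windows of 75 bases in its canonical transcript, 36.6% also occur in an annotated transcript of another gene on either strand, chiefly of the hair keratin KRT86, which overlaps it on the opposite strand, and 9.0% occur in genes that do not overlap it.

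KRT8 and KRT18, the partner pair of simple epithelia, lie side by side on chromosome 12, from 52897187 to 52949954 and from 52948871 to 52952906. KRT8 had 216, 218 and 230 CPM in controls and 224, 188 and 193 CPM with overexpression, and the groups overlapped because overexpressing library 1 lay among the controls. Its log2 fold change was -0.14, with a 95% interval from -0.28 to 0.00 and an adjusted p of 0.0829 from edgeR's test. Without overexpressing library 1 it was -0.22 (edgeR adjusted p = 0.00116), still under the fold change threshold. KRT18 had 245, 252 and 261 CPM in controls and 232, 216 and 219 CPM with overexpression. These groups did not overlap, and the log2 fold change of -0.18 ± 0.05 SE (edgeR adjusted p = 0.00504) was past the adjusted p but not the fold change threshold.

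Within a library, the ratio of KRT8 to KRT18 counts per kilobase of transcript does not depend on the scaling. It was 0.70, 0.68 and 0.70 in controls and 0.77, 0.69 and 0.70 with overexpression. The mean log2 ratio differed by 0.05 between the groups (two-sided exact permutation test, p = 0.60, where 3 libraries against 3 can give no p below 0.10). Both genes have many copies: GENCODE lists 51 KRT8 and 68 KRT18 pseudogenes by name, and 18.8% of the KRT8 windows and 28.4% of the KRT18 windows of 75 bases occur in a transcript of another gene. For KRT18 most of these come from KRT8 itself, whose longer transcripts overlap KRT18 on the opposite strand.

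KRT19 was the only 1 of the 10 genes called lower. It encodes a type I keratin that lacks the tail domain of other keratins, and lies on chromosome 17 from 41523617 to 41528308. It had 351, 386 and 371 CPM in controls and 247, 215 and 229 CPM with overexpression, with no overlap. The mean fell from 369 ± 17.8 to 230 ± 15.9 CPM (SD, n = 3 each), 1.60-fold lower (log2 fold change -0.68 ± 0.06 SE, edgeR adjusted p = 4.27e-07). Its call depended on how the fold change threshold was used: tested directly against a log2 fold change of 0.58 with edgeR's glmTreat, the adjusted p was 0.110. None of its 1316 windows of 75 bases occurs in another annotated transcript.

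**Figure D2:**
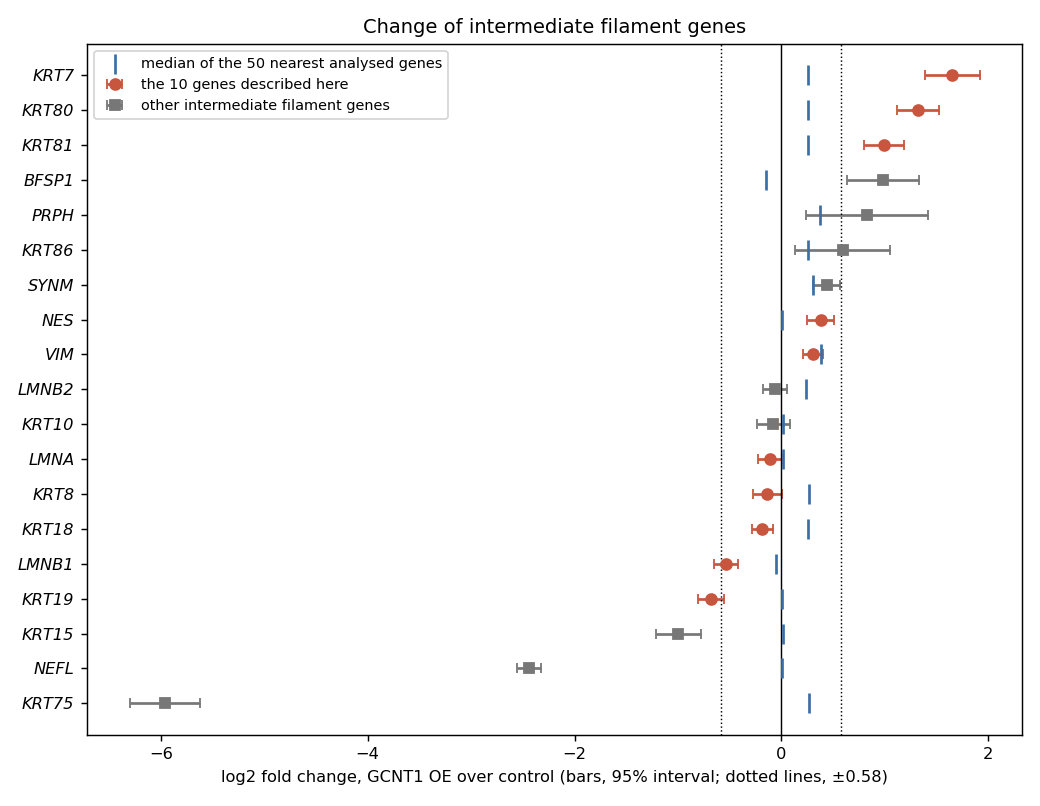
Log2 fold change (GCNT1 overexpressing over control) of all 19 intermediate filament genes with a row, with 95% intervals; dotted lines mark the fold change threshold of 0.58 in size and vertical ticks the median log2 fold change of the 50 analysed genes nearest on the chromosome. KRT7, KRT80 and KRT81 lie to the right of their neighbours' median of 0.26, VIM lies beside its own of 0.38, and KRT75 is the lowest at -5.96.

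VIM, on chromosome 10 from 17228241 to 17237593, was the most abundant of these transcripts and was moderately higher with overexpression. It had 1087, 1134 and 1161 CPM in controls and 1458, 1343 and 1370 CPM with overexpression, and the groups did not overlap. The 1.23-fold difference (log2 fold change 0.30 ± 0.05 SE, edgeR adjusted p = 8.06e-05) was under the fold change threshold. Over the 50 analysed genes nearest to VIM the median was 0.38 on the log2 scale, so that relative to its neighbours VIM was 0.08 lower on the log2 scale, and the part of the neighbourhood in the VIM difference was not tested. VIM-AS1, a noncoding RNA that overlaps VIM on the opposite strand and shares 641 bases of exon with it, rose as well, with 32, 31 and 29 counts in controls and 55, 50 and 61 with overexpression (edgeR adjusted p = 0.00231). Whether the counting used strand is not given in the sources used here, and without it reads of the 2 genes cannot be told apart.

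NES encodes nestin, a large type IV protein of progenitor cells, and lies on chromosome 1 from 156668763 to 156677407. It had 123, 127 and 113 CPM in controls and 167, 148 and 158 CPM with overexpression. The groups did not overlap and the level was 1.30-fold higher (log2 fold change 0.38 ± 0.06 SE, edgeR adjusted p = 0.000127), again under the fold change threshold. Over its own 50 nearest analysed genes the median was 0.00.

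The sequence upstream of VIM and of NES is shown because nestin assembles with vimentin and both transcripts were higher with GCNT1 overexpression. RefSeq promoter windows were matched for 5 of the 10 genes. The 250 bases before the start are printed from 5′ to 3′ on the gene's strand in GRCh38.p14, chr10:17227991-17228240 on the plus strand for VIM and chr1:156677408-156677657 on the minus strand for NES, and capitals mark the GC box GGGCGG or CCGCCC.
VIM: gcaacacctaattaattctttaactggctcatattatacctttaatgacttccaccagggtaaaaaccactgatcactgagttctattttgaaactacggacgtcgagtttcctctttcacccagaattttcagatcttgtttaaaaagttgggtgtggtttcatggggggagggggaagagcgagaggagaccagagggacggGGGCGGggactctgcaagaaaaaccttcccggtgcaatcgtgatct
NES: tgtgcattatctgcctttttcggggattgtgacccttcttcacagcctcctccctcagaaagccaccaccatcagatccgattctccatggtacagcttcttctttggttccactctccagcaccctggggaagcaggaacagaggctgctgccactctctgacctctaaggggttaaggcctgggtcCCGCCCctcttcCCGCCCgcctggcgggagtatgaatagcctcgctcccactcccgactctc
VIM has 1 GC box, which begins 46 bases before the start, and NES has 2, at 62 and 50 bases. Neither window holds TATAAA, the AP-1 letters TGANTCA or the E-box CACCTG on either strand. Of 35116 RefSeq windows of this length, 42.6% hold the GC box, 10.7% TATAAA, 6.57% TGANTCA and 17.5% CACCTG, so that the GC box is a common feature and these matches are descriptions of the letters only.

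LMNA, which encodes lamins A and C by splicing, lies on chromosome 1 from 156082573 to 156140081 and had 443, 470 and 498 CPM in controls and 461, 412 and 436 CPM with overexpression. These groups overlapped, and the log2 fold change was -0.11, with a 95% interval from -0.23 to 0.01 (edgeR adjusted p = 0.105). Without overexpressing library 1 it was -0.15 (edgeR adjusted p = 0.0194). LMNB1, which encodes the B-type lamin B1, lies on chromosome 5 from 126776623 to 126837020 and had 155, 164 and 148 CPM in controls and 105, 108 and 109 CPM with overexpression.

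The 3 overexpressing libraries agreed closely for LMNB1 and all lay far under the controls. It was 1.45-fold lower (log2 fold change -0.53 ± 0.05 SE, edgeR adjusted p = 2.51e-06), just under the fold change threshold and so not called. The ratio of LMNA to LMNB1 counts per kilobase was 2.60, 2.60 and 3.07 in controls and 3.99, 3.47 and 3.63 with overexpression. The groups did not overlap, and the mean ratio was 1.34-fold higher (two-sided exact permutation test, p = 0.10, the smallest that 3 against 3 allows). LMNB2, the other B-type lamin gene, had a log2 fold change of -0.06 with a 95% interval from -0.17 to 0.06.

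**Figure D3:**
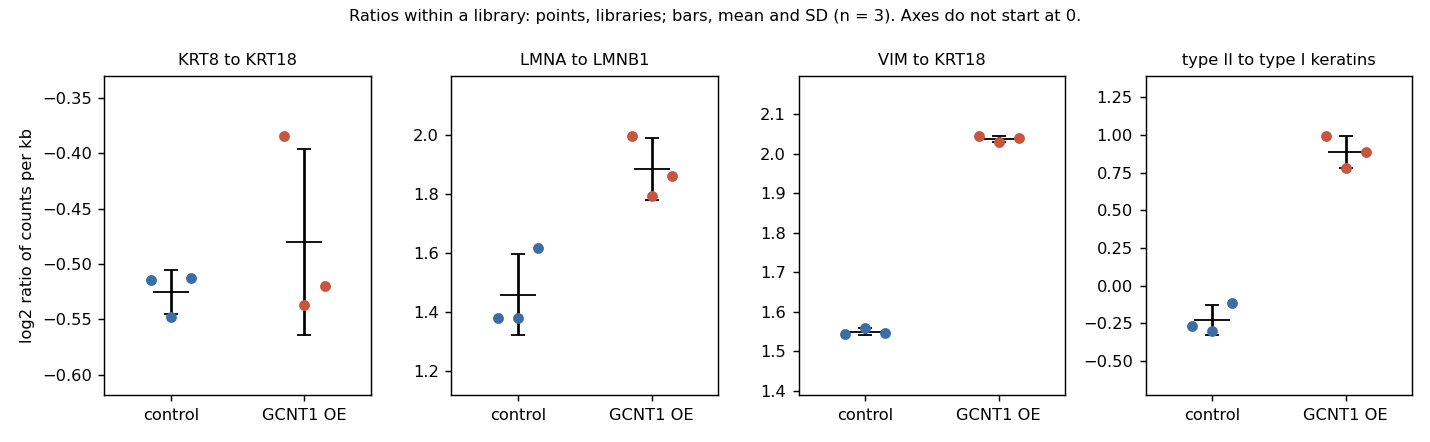
Log2 ratios of counts per kilobase of transcript within each library: KRT8 to KRT18, LMNA to LMNB1, VIM to KRT18 and all type II to all type I keratins. Points are libraries, bars are the mean and SD of 3 libraries per group, and the axes do not start at 0. The last 3 ratios are higher in every GCNT1 overexpressing library than in any control library, and the first overlaps.

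Of the ratios taken, that of VIM to KRT18 varied least between libraries of the same group. Per kilobase it was 2.92, 2.95 and 2.92 in controls and 4.12, 4.08 and 4.11 with overexpression. Libraries of the same group were nearly identical, and the mean ratio was 1.40-fold higher (two-sided exact permutation test, p = 0.10, the smallest possible). Here the VIM neighbourhood median of 0.38 and the KRT18 neighbourhood median of 0.26 on the log2 scale stand beside a log2 difference of 0.49. This ratio concerns the 2 genes and not keratins as a whole. The log2 fold change of VIM, 0.30, was under those of KRT7 (1.65), KRT80 (1.32) and KRT81 (0.99). It was over those of KRT8 (-0.14), KRT18 (-0.18) and KRT19 (-0.68).

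Per kilobase of transcript the order of levels in controls was led by VIM at 523 ± 17.4 CPM per kilobase (SD, n = 3), followed by KRT19 at 266 ± 12.8 and KRT81 at 229 ± 26.6, whose ranges overlapped. Then came KRT18 at 179, LMNA at 148, KRT8 at 124, LMNB1 at 53.8, NES at 21.7, KRT7 at 16.0 and KRT80 at 3.77 CPM per kilobase. With GCNT1 overexpression VIM still led, at 646 ± 27.9 CPM per kilobase (SD, n = 3), and KRT81 came next at 455 ± 60.2, clear of KRT19 at 166 ± 11.5. The ranges of KRT19 and KRT18, at 157, now overlapped. KRT7 moved to 50.3 CPM per kilobase, above LMNB1 at 37.2.

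**Figure D4:**
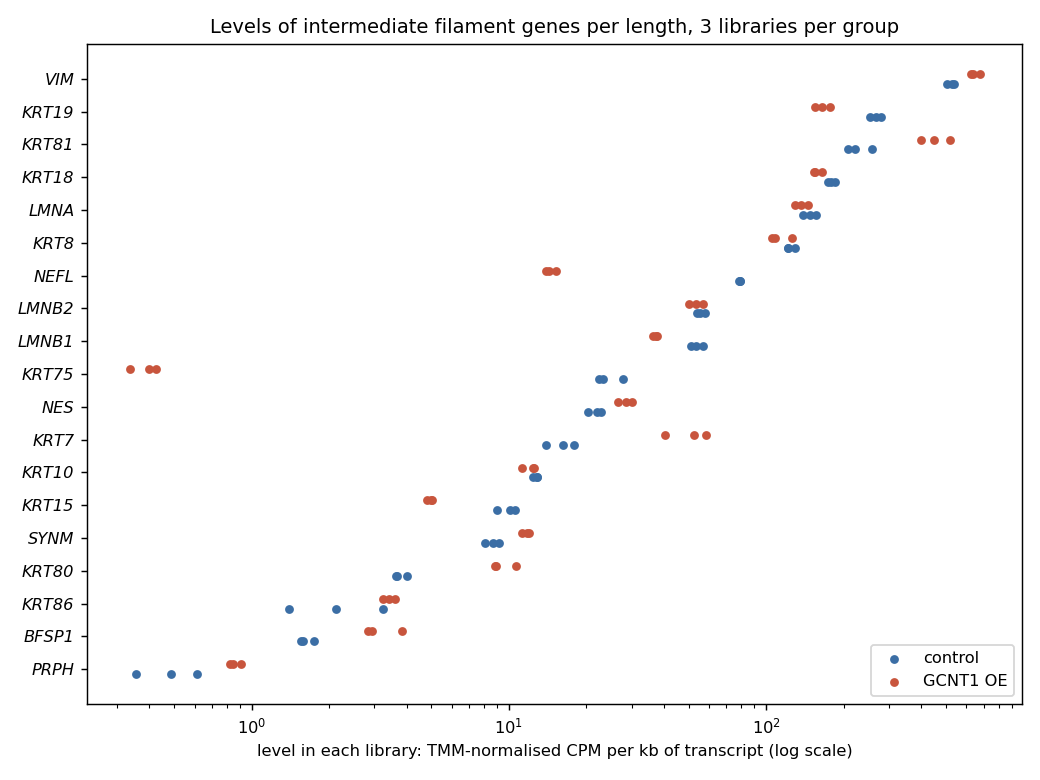
Level of the 19 intermediate filament genes with a row, as TMM-normalised CPM per kilobase of canonical transcript on a log axis, with 1 point per library and 3 libraries per group. VIM is highest in both groups, KRT81 passes KRT19 with GCNT1 overexpression, and KRT75 drops from 24.4 to 0.386 CPM per kilobase.

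The rest of the gene family was taken by symbol. Of 60 further intermediate filament genes 9 had a row, and 6 of the 9 were called, 3 higher and 3 lower, against 19.3% of all genes, 8.28% higher and 11.1% lower. Their median log2 fold change was -0.06, but their range, from -5.96 to 0.98, was wider than that of the 10 genes, from -0.68 to 1.65.

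KRT75, a type II keratin of the hair follicle's companion layer, had the largest change of the 19 genes. It had 631, 604 and 710 counts in controls and 10, 10 and 13 with overexpression, and so was nearly lost in each overexpressing line. The level fell from 52.9 ± 6.25 to 0.838 ± 0.0993 CPM (SD, n = 3 each), 62.4-fold lower (edgeR adjusted p = 5.82e-12). NEFL, the light subunit of neurofilaments, had 282, 282 and 284 CPM in controls and 49.8, 54.5 and 51.5 CPM with overexpression, 5.43-fold lower (edgeR adjusted p = 9.13e-13). Over its 50 nearest analysed genes the median was 0.00 on the log2 scale. KRT15, a type I keratin of basal cells, fell 2.00-fold, from 16.9 to 8.45 CPM in the mean (edgeR adjusted p = 2.33e-06).

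The other called genes of the family stood at low levels. BFSP1, which encodes the lens protein filensin, rose from 3.61 to 7.12 CPM (edgeR adjusted p = 0.000168). PRPH, which encodes peripherin of peripheral neurons, rose from 0.872 to 1.55 CPM (edgeR adjusted p = 0.0192), and was not past the threshold under DESeq2 (adjusted p = 0.114) or without control library 2 (edgeR adjusted p = 0.0928). Relative to its 50 nearest analysed genes PRPH was 0.45 higher on the log2 scale, under the fold change threshold. KRT86 rose from 5.07 to 7.68 CPM in the mean (edgeR adjusted p = 0.0292), but its groups overlapped and without control library 3 the log2 fold change was 0.35 (edgeR adjusted p = 0.106). It was also lost without control library 1 (adjusted p = 0.0724) and without overexpressing library 3 (adjusted p = 0.0877, both from edgeR's test). SYNM, which encodes synemin, was 1.36-fold higher, under the fold change threshold, and KRT10 had a log2 fold change of -0.08 with a 95% interval from -0.24 to 0.08.

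The type II keratin cluster on chromosome 12 held both the rises and the largest fall. Going along the chromosome, the keratins KRT80, KRT7, KRT86 and KRT81 start in this order with no other analysed gene between them, KRT81 lies within the span of KRT86, and all 4 were called higher, KRT86 with overlapping groups. From the start of KRT80 to the end of KRT81 is 122.5 kb. KRT75 lies 132.5 kb beyond KRT81 and was called lower, and KRT8 and KRT18, further along, were not called. From 500 kb before KRT80 to 500 kb beyond KRT18 there were 19 other analysed genes, of which 2 were called higher, TNS2 and AMHR2, and 0 lower, against 8.28% and 11.1% of all genes, and the median over the 19 was 0.25 on the log2 scale. Against its 50 nearest analysed genes the log2 fold change of KRT7 was higher by 1.40, of KRT80 by 1.06, of KRT81 by 0.74 and of KRT86 by 0.34, the last under the fold change threshold, while those of KRT8 and KRT18 were lower by 0.40 and 0.44.

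**Figure D5:**
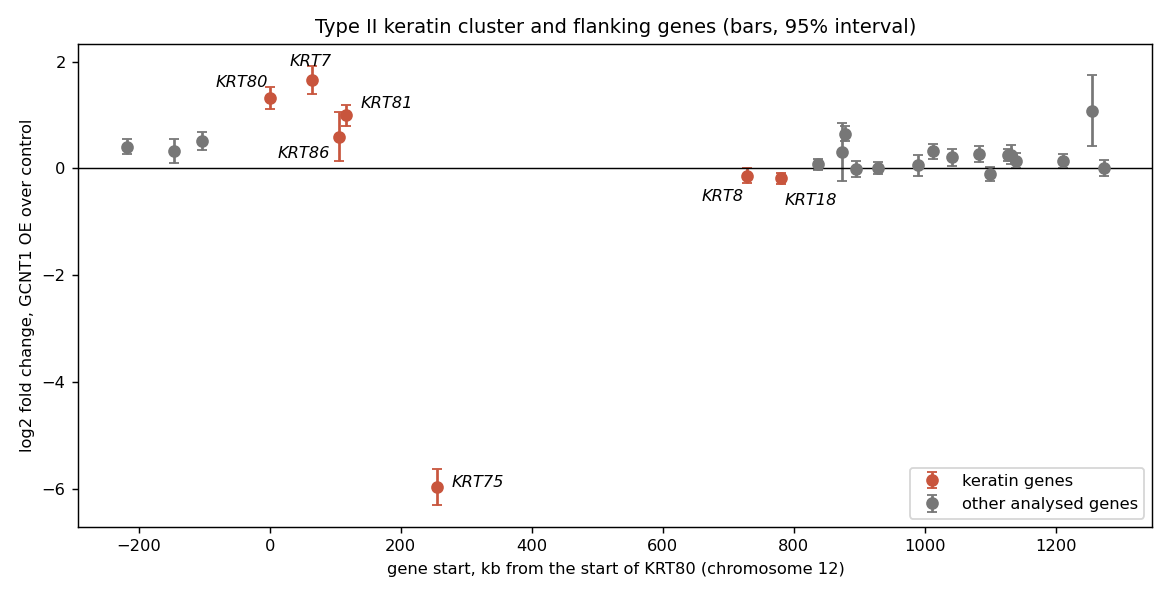
Log2 fold change (GCNT1 overexpressing over control, with 95% intervals) of the 26 analysed genes around the type II keratin cluster of chromosome 12, plotted by the distance of each gene start from the start of KRT80 in kilobases. KRT80 and the 3 keratins nearest to it lie between 0.59 and 1.65, KRT75 at -5.96, and KRT8 and KRT18 at -0.14 and -0.18.

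The 250 bases upstream of KRT75 are shown because this keratin fell the most and lies beside the keratins that rose. The RefSeq window is chr12:52434372-52434621 of GRCh38.p14 on the minus strand, printed from 5′ to 3′ on the gene's strand with the GC box in capitals.
KRT75: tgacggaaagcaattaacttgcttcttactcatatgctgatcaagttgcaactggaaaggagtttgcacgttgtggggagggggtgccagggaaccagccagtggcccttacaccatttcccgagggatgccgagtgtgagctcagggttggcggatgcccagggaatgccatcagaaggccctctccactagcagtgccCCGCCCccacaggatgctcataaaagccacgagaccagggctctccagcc
It holds 1 GC box, beginning 50 bases before the start, and none of the other 3 motifs.

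Summed per kilobase over all 4 type I and all 6 type II keratins with a row, the type II to type I ratio was 0.83, 0.81 and 0.92 in controls and 2.00, 1.72 and 1.85 with overexpression. Control lines thus had slightly more type I than type II transcript, and every overexpressing line had more type II, but KRT81 decided this order. With KRT81 left out, an alternative chosen after seeing the data, the ratio was 0.37, 0.35 and 0.38 in controls and 0.55, 0.49 and 0.51 with overexpression, 1.42-fold higher in place of 2.17-fold and under 1 in every line. Type II keratins made up at most 24.0% of the summed level per kilobase of the 19 genes in controls and 31.3% to 35.0% with overexpression, and type I keratins at most 27.1% and 17.5% to 18.2%. VIM took 29.5% to 30.0% in controls and 33.0% to 35.1% with overexpression, lamins 14.4% to 14.8% and 11.6% to 12.2%, and type IV genes 5.89% to 6.52% and 2.69% to 3.01%. Of the 3 type IV genes NEFL alone was lower, from 78.8 to 14.5 CPM per kilobase, while NES had 21.7 and 28.3 and SYNM 8.60 and 11.7 CPM per kilobase. These sums are over chosen genes and are given without a test.

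Proteins that tie filaments together or modify them were followed in a list of 39 genes, of which 36 had a row. Of these, 5 were called, 2 higher and 3 lower, a share below the 19.3% of all genes. By the adjusted p alone 20 of the 36 passed, against 57.6% of all genes, 5 of them higher and 15 lower, against 28.3% and 29.3% of all genes. The plakins, giant linkers between filaments and junctions, had 0 called of 6 in edgeR's test (19.3% of all genes), with 4 past the adjusted p alone (57.6% of all genes) and log2 fold changes from -0.47 for PLEC, which encodes plectin, to -0.08 for DSP, which encodes desmoplakin. CRYAB, a small heat shock protein that chaperones desmin and vimentin filaments, rose 3.00-fold from 1.72 to 5.11 CPM (edgeR adjusted p = 7.67e-05). TRIM32, a ubiquitin ligase that acts on desmin, rose 1.51-fold (edgeR adjusted p = 7.38e-06), close to the fold change threshold, and its log2 fold change was 0.56 without overexpressing library 2 and 0.34 relative to its 50 nearest analysed genes, both under that threshold. ROCK2, a kinase that phosphorylates vimentin, fell 2.15-fold from 188 to 87.3 CPM (edgeR adjusted p = 8.41e-08), beside a median of -0.50 on the log2 scale over its 50 nearest analysed genes. TFAP2C, a transcription factor of epithelial genes, fell 1.81-fold (edgeR adjusted p = 2.45e-07). PRKCE, a protein kinase C, fell 1.57-fold (edgeR adjusted p = 0.000321) beside neighbours with a median of -0.46, relative to which it was at -0.19, and without control library 2 its log2 fold change was -0.57.

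Partners of the nuclear lamina were followed in 32 genes, 31 of them with a row. Here 2 were called, 1 higher and 1 lower, and by the adjusted p alone 12 passed, 3 higher and 9 lower, against 19.3% called, and 28.3% higher and 29.3% lower by the adjusted p alone, of all genes. With library size alone as the scaling 12 also passed, 6 higher and 6 lower. Both called genes encode parts of the LINC complex, which couples the lamina to the cytoskeleton. SYNE1, which encodes nesprin-1, had 16.1, 13.2 and 13.8 CPM in controls and 22.1, 30.5 and 23.4 CPM with overexpression, 1.76-fold higher (edgeR adjusted p = 9.33e-05). SUN2, an inner membrane partner of the nesprins, had 79.4, 79.8 and 87.0 CPM in controls and 56.0, 49.5 and 53.6 CPM with overexpression, 1.55-fold lower (edgeR adjusted p = 2.75e-06). With library size alone as the scaling, or without overexpressing library 2, SUN2 had a log2 fold change of -0.57 or -0.58 and was not past the fold change threshold, and relative to its 50 nearest analysed genes it was at -0.39. The 5 prelamin processing genes had 0 called in edgeR's test and 3 past the adjusted p alone, beside 19.3% and 57.6% of all genes. The lowest of them was ICMT, a methyltransferase that acts on lamin tails, with a log2 fold change of -0.48.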

How the data were processed

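From 6 PC3 lines the authors made stranded mRNA libraries, sequenced as single 75 bp reads. Per the study's methods, Cutadapt trimming, HISAT2 alignment against hg38 and featureCounts then gave the deposited raw counts per gene. The annotation, the strand setting and any filter on low counts are not given in the sources used here. Groups and replicate numbers came from the sample titles. Libraries of the same group differed by more than sampling noise (chi-square per degree of freedom 1.65 to 5.65). Each was counted as 1 sample, but this measure cannot tell separate lines from separate preparations of 1 line.

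The test was edgeR 4.0.16 under R 4.3.3, as a quasi-likelihood fit of the 2 groups with TMM factors. Its filterByExpr step kept all 12703 genes. Standard errors are the log2 fold change over the root of the quasi-likelihood F. Totals of 11392213 to 13825704 counts put 3 counts at 0.217 to 0.263 CPM, which covers counting error only. Alternatives were scaling by RLE or by library size alone, limma-voom (limma 3.58.1), DESeq2 1.42.0, glmTreat, no filter or at least 10 counts per library, a block for the replicate number, leaving out each library, and fold changes relative to the 50 nearest genes.

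Levels per length used the canonical transcripts of GENCODE 44, and gene order and promoters RefSeq GRCh38.p14, in Python 3.11.15. Symbols were matched for 12661 genes. On simulated counts of 12664 genes for this comparison, edgeR recovered 94% of changes of 1 and 100% of changes of 2 on the log2 scale, with 0.513% false calls. The simulation changed 200 genes and gave all genes the same coefficient of variation between libraries, 0.0515. In the data 2457 genes were called and the spread differs by gene, so these rates hold for the simulated setting only. The genes and lists were chosen with earlier results of these data known. Named genes are the 10 genes, all other family genes with a row, the called genes of the 2 partner lists, GCNT1, overlapping genes, the 3 genes most like the smallest-p gene, the cell type markers with a row and, chosen after their values were seen, PLEC, DSP, ICMT, TNS2 and AMHR2.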

Additional observations from a re-analysis of the deposited data

How the results depend on the processing

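Of 507 values under the alternatives, 474 kept their side of the threshold (for a count, stayed within 1.5 times, and for a ratio, within 1 SD), 26 values of single genes fell short of the threshold in the same direction, 5 counts and 1 ratio moved by more than that, and 1 log2 fold change reversed: VIM, at -0.077 on the log2 scale relative to its 50 neighbours, since their median is higher than the VIM value. The 10 genes had 4 calls under all alternatives except glmTreat, which gave 3. Relative to the 50 nearest genes only the fold change was altered, and the adjusted p of the main fit was kept. With glmTreat, which tests against the fold change threshold itself, 1392 of all genes, 3 linker or modifier genes and 0 lamina partners were called. Library size alone gave 1 lamina partner and split all calls by adjusted p into 4290 higher and 3144 lower, against 3593 and 3721. The filter at 10 counts left out GCNT1 and PRPH, which have fewer counts in some libraries.

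Leaving out each library in turn gave 2409 to 2511 called genes, 4 calls among the 10 genes each time, 5 to 6 among the other filament genes, 4 to 6 among linkers and 1 to 2 among lamina partners, with 1 without overexpressing library 2, where SUN2 had -0.58. TRIM32 was lost without that library and PRKCE without control library 2. GCNT1 was also lost without control library 1 or 3. The LMNA to LMNB1 log2 ratio differed by 0.37 to 0.50, VIM to KRT18 by 0.48 to 0.49, type II to type I keratins by 1.06 to 1.17, and KRT8 to KRT18 by -0.003 to 0.073, where the sign changed without overexpressing library 1. With KRT81 left out, chosen after seeing the data, the type II to type I log2 ratio differed by 0.503.

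Same-numbered libraries deviated from their group means with correlations of -0.273, -0.00240 and -0.109. Differently numbered libraries of the 2 groups had correlations from -0.2 to 0.263. These values cannot show which libraries were prepared together, and that was not tested. A replicate block in the fit gave 2423 called genes in place of 2457, 4 of them among the 10, and changed no call among the 19 family genes, GCNT1 and the called linker and lamina genes. Calls of the other genes named were not compared under it. Depth limits GCNT1 and PRPH, each with fewer than 10 counts in at least 1 control library.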
